A study of Mus musculus with 9 samples.

Results

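The 8 genes described here are 6 genes of the mouse major histocompatibility complex (H2-T22, H2-T23, H2-T24, H2-DMb1, H2-K1 and H2-D1), their partner B2m, and Dynlt1b, a dynein light chain gene on the same chromosome as the H2 genes. They are 8 of 51912 genes listed, were found by Ensembl identifier, and were selected on their FPKM in these libraries, because several of them set HET replicate 1 and WT replicate 3 apart from the rest. That difference is therefore given as a description, with no test. All 8 passed the filter used for testing (1 FPKM or more in at least 3 of 6 libraries), which left 15391 genes. The study sequenced RNA from cochleae taken at postnatal day 3 from 3 groups of mice, each with 3 libraries. Groups follow the sample titles: HET is Pou4f3(Δ/+), with 1 mutant and 1 normal allele of the hair cell transcription factor Pou4f3, and WT is Pou4f3(+/+), wild-type littermates per the series' design text. HOM, Pou4f3(Δ/Δ), is not used because its files list 1137 genes and none of the 8. The extent of Δ, the strain, the sex and whether a library pools animals are stated nowhere in the labels, and the genotype characteristic of all 9 samples names another genotype than the title.

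Class I molecules of the major histocompatibility complex are heavy chains that pair with the light chain encoded by B2m and show peptides from inside the cell to CD8 T cells and natural killer cells. Class II molecules show peptides taken up from outside to CD4 T cells, and H2-DM, a dimer with H2-DMb1 or H2-DMb2 as its beta chain, helps to load them. Interferons raise many genes of both kinds through interferon-stimulated response elements, and NF-kappaB sites and X boxes act in the same promoters. The H2 region also differs between inbred mouse strains more than most of the genome, in sequence and in gene content, and holds families of closely related copies. In the inner ear, class II molecules are known mainly from resident macrophages.

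Several of these genes have close copies, and the stretches below show bases at which they differ. Each is 60 bases of coding sequence, 5′ to 3′, from GENCODE M21 transcripts of GRCm38, and capitals mark the bases that differ within a pair.
H2-DMb1, coding bases 208 to 267: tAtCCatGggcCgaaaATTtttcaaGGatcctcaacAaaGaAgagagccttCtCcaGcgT
H2-DMb2, coding bases 208 to 267: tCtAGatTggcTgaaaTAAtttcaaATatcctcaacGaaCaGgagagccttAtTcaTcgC
H2-T22, coding bases 665 to 724: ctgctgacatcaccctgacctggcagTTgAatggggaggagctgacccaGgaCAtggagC
H2-T10, coding bases 665 to 724: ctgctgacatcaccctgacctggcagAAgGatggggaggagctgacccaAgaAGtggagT
Dynlt1b, coding bases 1 to 60: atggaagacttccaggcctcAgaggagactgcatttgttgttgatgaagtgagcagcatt
Dynlt1f, coding bases 1 to 60: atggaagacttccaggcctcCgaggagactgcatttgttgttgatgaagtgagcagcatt
H2-K1, coding bases 492 to 551: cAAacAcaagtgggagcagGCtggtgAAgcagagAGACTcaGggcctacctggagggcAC
H2-D1, coding bases 501 to 560: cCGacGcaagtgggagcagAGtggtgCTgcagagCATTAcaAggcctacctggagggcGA
Over the whole coding sequence H2-DMb1 and H2-DMb2 were 95.9% identical (32 of 783 aligned bases differ), with a longest identical run of 221 bases. H2-T22 and H2-T10 were 96.9% identical (35 of 1134, longest run 134 bases). Dynlt1b differed from each of Dynlt1a, Dynlt1c and Dynlt1f at 1 of 339 coding bases (99.7% identity, longest run 318 bases), so coding reads of this family can hardly be assigned. H2-K1 and H2-D1, the 2 classical class I genes, were 91.4% identical (93 of 1077). The stretches shown hold 17, 7, 1 and 15 differing bases of 60, pair by pair in the order above. Differences are thus denser there than over the whole coding sequence, where reads separate the copies less well. H2-T23 and H2-T24 stood farther apart, at 67.0%, and H2-T22 was 75.7% identical to H2-T23 and 66.1% to H2-T24. How the authors assigned reads shared by such copies is stated neither in the labels nor in the files, so the level of any one copy is uncertain.

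Promoters of 6 of the 8 genes were in the RefSeq table for GRCm38.p6 (250 bases before to 50 after the start), and the stretches that hold an interferon or NF-kappaB motif are shown because they are the sequence side of an immune response in these genes. Capitals mark the motifs.
H2-T22, chr17:36042904-36042975, - strand: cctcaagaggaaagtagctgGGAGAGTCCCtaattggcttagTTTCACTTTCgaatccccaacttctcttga
H2-T23, chr17:36032796-36032845, - strand: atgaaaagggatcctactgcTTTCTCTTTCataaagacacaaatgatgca
H2-K1, chr17:34000428-34000478, - strand: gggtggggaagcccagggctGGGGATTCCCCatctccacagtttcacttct
H2-D1, chr17:35262903-35262953, + strand: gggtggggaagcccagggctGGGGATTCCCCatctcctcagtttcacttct
B2m, chr2:122147528-122147590, + strand: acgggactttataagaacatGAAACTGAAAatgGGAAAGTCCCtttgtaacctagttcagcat
The interferon-stimulated response element, searched as GAAA, any 2 bases and GAAA on both strands, was found in the promoters of H2-T22, H2-T23 and B2m and in 3.49% of 27025 promoters. The NF-kappaB motif was found in H2-T22, H2-K1, H2-D1 and B2m and in 8.18% of all promoters. In H2-K1 and H2-D1 each capital run holds 2 overlapping matches. The X2 box core, searched as TGACG, was found in H2-T22, H2-K1, H2-D1 and B2m and in 21.0% of promoters, and CCAAT in all 6 and in 37.9%. H2-DMb1 held CCAAT alone of the 4 motifs. Of the 3 genes with a response element in this search, H2-T22 and H2-T23 were low in HET 1 and WT 3 and B2m was high, as the levels below show. Elements that depart from the spelling searched were not counted, so H2-K1, H2-D1 and H2-DMb1 lack that spelling only. Whether any of these motifs acted in these libraries was not tested.

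Levels are given as deposited, in FPKM, which are fragment counts scaled by the authors to gene length and library depth. Depth recovered from the steps between low values was 15548546 to 17409048 fragments in HET and 14570968 to 17027316 in WT. Hair cell markers (10 of 10) and supporting cell markers (8 of 8) passed the filter, and Pou4f3 was at 24.2, 21.7 and 25.6 FPKM in HET against 25.02, 24.5 and 27.0 FPKM in WT, so its level does not tell these groups apart. In the libraries titled HOM, which the characteristic names HET, it was at 5.92, 1.36 and 9.39 FPKM, so the lowest Pou4f3 goes with the titles. HET 1 and WT 3 stood apart across the transcriptome: the first principal component held 58.1% of the variance and placed them at -32.7 and -27.4, against 4.35 to 22.4 for the other 4. Both lay above the other 4 libraries in 31.4% of genes tested and both below in 25.2%. The genes in which both lay above had a median exon length of 2854 bp, against 6869 bp where both lay below. Throughout, the gap of a gene is the distance on the log2(FPKM + 1) scale between this pair and the nearest of the other 4 libraries, positive where both lie above and negative where both lie below. A gap of at least 1 in size was reached by 68 of 15391 genes (0.442%), 56 below (0.364%) and 12 above (0.078%). A gene at 1 FPKM or more in this pair alone could not pass the filter, while one under 1 FPKM in this pair alone could. The filter thus favours gaps below, and the counts below and above are not on equal terms.

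The nonclassical class I genes of the T region were near background in HET 1 and WT 3 and well measured in the other libraries. H2-T22 (ENSMUSG00000056116, chr17:36037128-36042747, - strand), whose product is a ligand of gamma delta T cell receptors, was at 0.27, 4.95 and 4.24 FPKM in HET 1 to 3 and at 6.87, 5.17 and 0.37 FPKM in WT 1 to 3. These rest on 15, 294 and 225 recovered fragments in HET and 399, 257 and 19 in WT. The low libraries, HET 1 and WT 3, were 1 of each genotype and left a gap of -1.94. H2-T23 (ENSMUSG00000067212, chr17:36029773-36032855, - strand) encodes Qa-1, which shows signal peptides of other class I chains to natural killer cells. It was at 0.13, 8.15 and 6.95 FPKM in HET and 9.03, 7.37 and 0.07 FPKM in WT, from 6, 410 and 312 fragments in HET and 444, 310 and 3 in WT. Its gap of -2.81 was the widest among the 8. H2-T24 (ENSMUSG00000053835, chr17:36005695-36020560, - strand), a further class I gene of the T region, was at 0.31, 3.27 and 2.59 FPKM in HET and 3.04, 2.86 and 0.33 FPKM in WT, a gap of -1.43. Counting error alone (exact Poisson, 95%) left H2-T23 at 0.0467 to 0.277 FPKM in HET 1 and 0.0141 to 0.200 FPKM in WT 3. It left H2-T22 at up to 0.444 FPKM in HET 1 and 0.574 FPKM in WT 3, and H2-T24 at up to 0.552 and 0.596 FPKM, all far under the next library. These 3 genes lie within 37.1 kb on the same strand. Their shared low libraries follow from how the genes were chosen and are no separate result.

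The classical class I genes did not follow the T region. H2-K1 (ENSMUSG00000061232, chr17:33996017-34000347, - strand), a heavy chain found on nearly all cells, was at 8.01, 7.20 and 5.99 FPKM in HET and 6.83, 7.69 and 6.62 FPKM in WT. HET 1 was its highest library while WT 3 lay below 4 of the others, so its gap was 0 and its levels stayed within 274 to 384 fragments. H2-D1 (ENSMUSG00000073411, chr17:35262730-35267499, + strand), the other classical heavy chain, was at 19.6, 8.33 and 8.58 FPKM in HET and 7.81, 10.09 and 21.1 FPKM in WT. Here HET 1 and WT 3 were the 2 highest libraries, with 826 and 823 fragments against 343 to 379 in the other 4, a gap of 0.89. B2m (ENSMUSG00000060802, chr2:122147686-122153083, + strand), the light chain that class I heavy chains share, was at 188, 110.3 and 106 FPKM in HET and 127, 133 and 159 FPKM in WT. HET 1 and WT 3 were again highest, by a gap of 0.26. B2m has 860 bp of exon, and Dynlt1b, which was chosen for being low in this pair, has 771 bp. Whether transcript length played a part in these levels was not tested.

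H2-DMb1 (ENSMUSG00000079547, chr17:34153072-34160230, + strand), a beta chain of the peptide editor H2-DM, was at 1.98, 6.23 and 5.28 FPKM in HET and 7.16, 6.70 and 1.74 FPKM in WT. HET 1 and WT 3 were low but clearly measured, with 54 and 44 fragments, and the gap was -1.08. Dynlt1b (ENSMUSG00000096255, chr17:6430112-6436296, + strand) encodes a light chain of cytoplasmic dynein, the motor that moves cargo along microtubules, and has no known part in antigen presentation. It was at 0.16, 7.41 and 7.71 FPKM in HET and 7.34, 5.45 and 0.09 FPKM in WT, from 2, 99 and 92 fragments in HET and 96, 61 and 1 in WT, a gap of -2.48. Dynlt1b lies 27.6 Mb from H2-K1. Its low libraries were those of the T region, a likeness for which it was chosen. Of the 8 genes, 5 had a gap of -1 or beyond (62.5%, against 0.364% of genes tested on that side and 0.442% on either), 0 had one of 1 or more above (0.078%), 2 lay above by less and 1 showed no gap; the choice of these genes fixed that count. The weakest gap among the 5 was that of H2-DMb1 at -1.08, and the next gene by size was H2-D1 at 0.89.

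**Figure D1:**
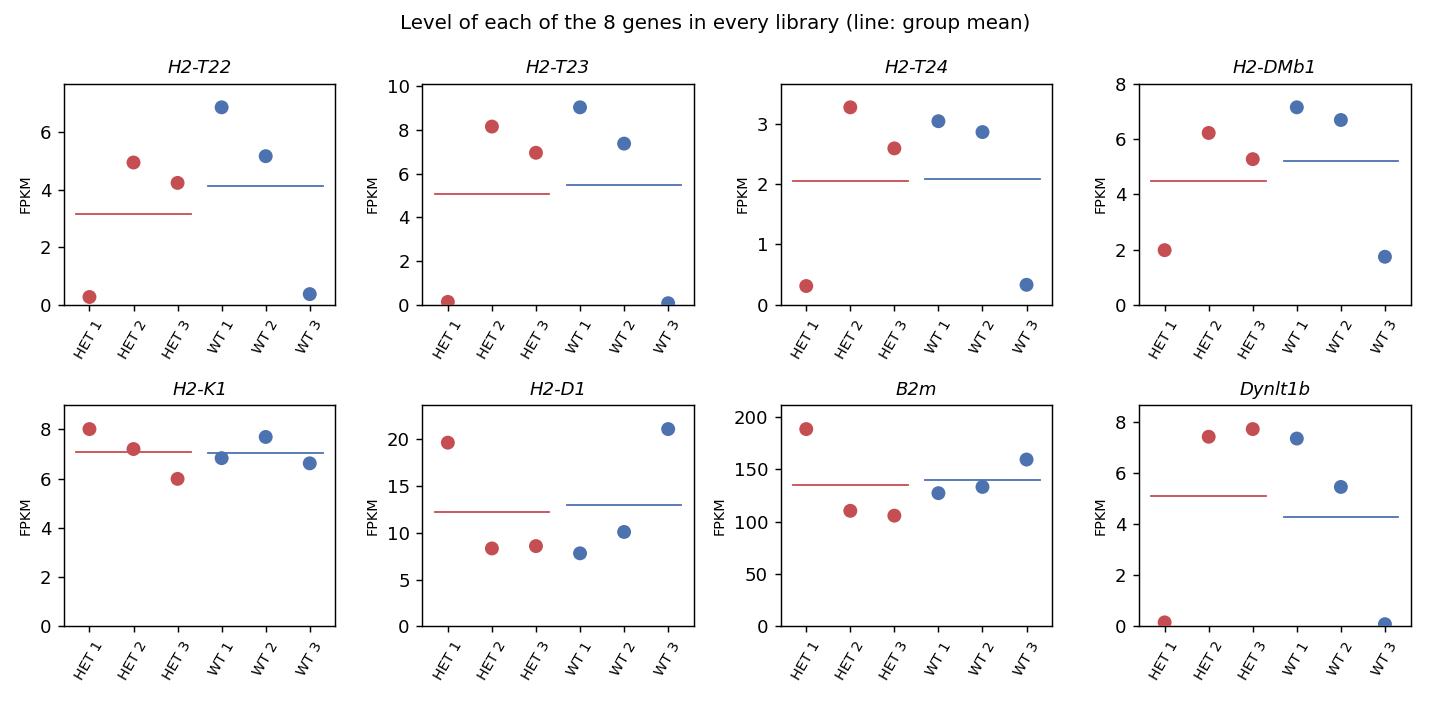
FPKM of each of the 8 genes (vertical axes, each from 0) in the 3 HET libraries (red) and the 3 WT libraries (blue), with a line at each group mean. HET 1 and WT 3 are low for H2-T22, H2-T23, H2-T24, H2-DMb1 and Dynlt1b, high for H2-D1 and B2m, and unremarkable for H2-K1.

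In order of mean level per length, B2m came first at 135 ± 46.4 FPKM in HET and 139.8 ± 17.1 FPKM in WT (SD, n = 3 each), above the other 7 genes in every library. H2-D1 followed at 12.2 ± 6.45 FPKM in HET and 12.99 ± 7.09 FPKM in WT, then H2-K1 at 7.07 ± 1.02 and 7.05 ± 0.567 FPKM. H2-T23 was at 5.08 ± 4.33 FPKM in HET and 5.49 ± 4.77 FPKM in WT, H2-DMb1 at 4.50 ± 2.23 and 5.20 ± 3.01 FPKM, and Dynlt1b at 5.09 ± 4.28 and 4.29 ± 3.76 FPKM. H2-T22 (3.15 ± 2.52 FPKM in HET and 4.14 ± 3.37 FPKM in WT) and H2-T24 (2.06 ± 1.55 and 2.08 ± 1.52 FPKM) came last. Below B2m, the ranges of mean ± SD of neighbours in this order overlapped within each genotype.

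The comparison of genotypes, which the series' design text names, called no difference in any of the 8 genes. HET and WT levels overlapped in all 8, against 5.94% of genes tested in which they did not. In limma on log2(FPKM + 1), none of the 8 was called at an adjusted p under 0.05, and neither was any gene (0%, 0 of 15391), while 266 genes (1.73%) had an unadjusted p under 0.05, none of the 8 among them. H2-T22 changed by -0.25 (SE 0.84), H2-T23 by -0.04 (SE 1.11), Dynlt1b by 0.18 (SE 1.04) and H2-D1 by -0.08 (SE 0.43), all at an adjusted p of 0.9998. H2-K1 was the most narrowly bounded, at -0.002 with a 95% interval of -0.28 to 0.28. B2m differed by -0.10 (interval -0.66 to 0.46). Because each genotype holds 1 of the 2 libraries that stand apart, their spread sits inside both groups. Without HET 1 and WT 3, which leaves 2 libraries in each group, 0 of 15517 genes were called (0%) and 2474 (15.9%) had an unadjusted p under 0.05, B2m alone among the 8. B2m then differed by -0.27 (SE 0.05, limma adjusted p = 0.180), at 110.3 and 106 FPKM in HET 2 and 3 and 127 and 133 FPKM in WT 1 and 2. H2-T22 differed by -0.32 (SE 0.14) and H2-DMb1 by -0.23 (SE 0.09), neither past the threshold, and the intervals of the other 5 also included 0. The sign of each of the 8 differences turned when at least 1 single library was left out, as for H2-T23, at -1.08 without WT 3 and 0.93 without HET 1. Whether libraries came from separate animals is not stated, so these p values measure the spread between libraries, which may be technical. In whole tissue, fewer cells of a type and less RNA per cell cannot be told apart.

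**Figure D2:**
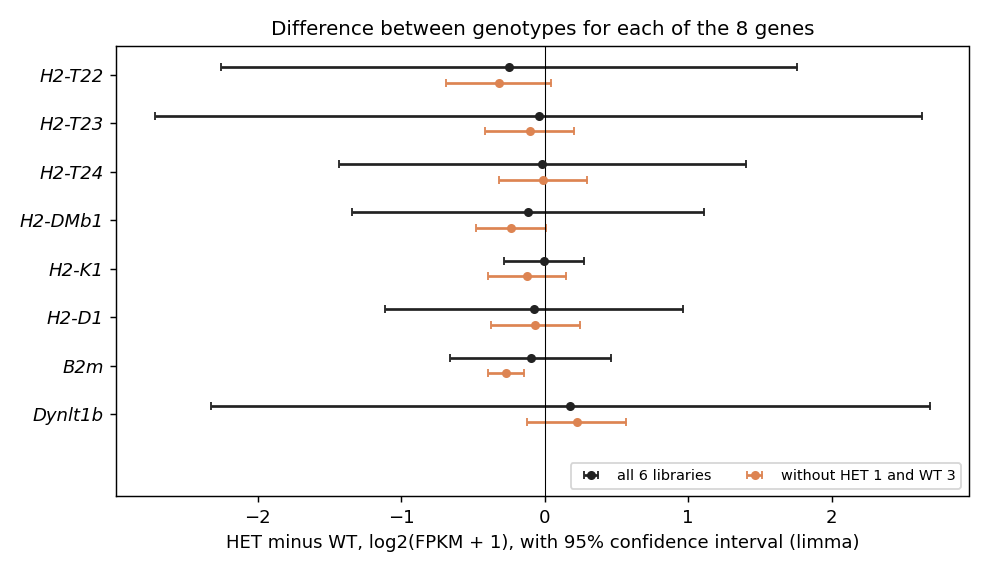
Difference of HET minus WT on the log2(FPKM + 1) scale (horizontal axis) for each of the 8 genes, with limma's 95% confidence interval, over all 6 libraries (black) and without HET 1 and WT 3 (orange). All black intervals include 0, and the intervals of the T region genes and Dynlt1b narrow most when the pair is left out.

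Of the close copies examined, H2-DMb2, H2-T10, Dynlt1a and Dynlt1f were highest in HET 1 and WT 3, and Dynlt1c was not. H2-DMb2, which ends 1.52 kb before the start of H2-DMb1, was at 6.16, 1.41 and 1.99 FPKM in HET and 1.03, 1.65 and 4.87 FPKM in WT, a gap of 0.97 in the opposite direction to that of H2-DMb1. The fragments of both genes together, per 1000000 fragments of recovered depth (FPM), came to 14.1, 12.9 and 12.4 FPM in HET and 13.8, 14.1 and 11.4 FPM in WT, so the highest library exceeded the lowest by 1.24 times. The sum thus varied far less than either gene. H2-T10, the close copy of H2-T22, was at 2.02, 0.60 and 0.55 FPKM in HET and 0.33, 0.76 and 1.55 FPKM in WT, too low for the filter, with its highest levels in HET 1 and WT 3. Together H2-T22 and H2-T10 had 7.83, 18.95 and 16.4 FPM in HET and 24.6, 20.2 and 6.56 FPM in WT, a 3.75-fold range, so H2-T10 did not make up the difference. Among the Dynlt1 copies, Dynlt1f was at 27.7, 13.8 and 14.8 FPKM in HET and 15.4, 18.7 and 24.3 FPKM in WT, and Dynlt1a at 7.02, 4.10 and 3.55 FPKM in HET and 3.25, 3.05 and 5.88 FPKM in WT. Both were highest in HET 1 and WT 3. Dynlt1c, at 2.63, 2.28 and 2.49 FPKM in HET and 2.38, 2.93 and 2.0 FPKM in WT, showed no gap and was lowest in WT 3. No copies of H2-T23 or H2-T24 were examined. The family's sum was highest in this pair, at 140.5 and 121 FPM in HET 1 and WT 3 against 81.9 to 96.2 FPM in the other 4, and Dynlt1b made up at most 5.94 FPM of it. These families were chosen after their values were seen.

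**Figure D3:**
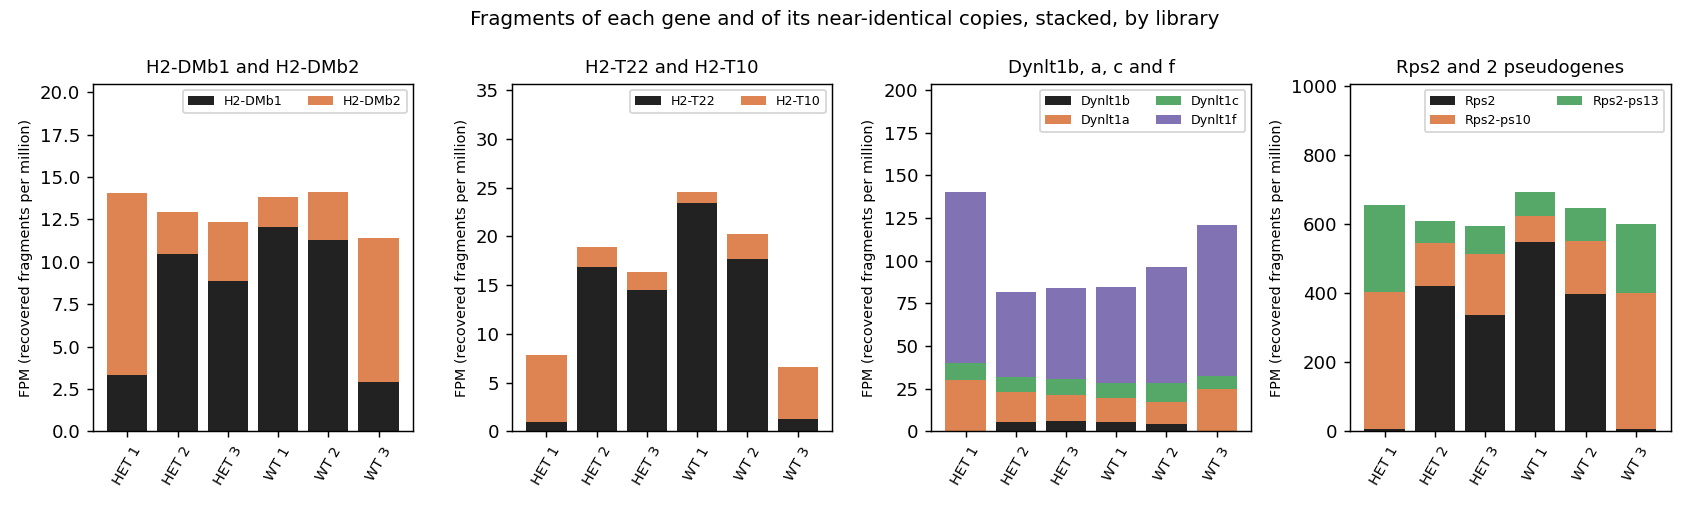
Recovered fragments per 1000000 (FPM) in each library (vertical axes, each from 0), stacked by gene, for H2-DMb1 with H2-DMb2, H2-T22 with H2-T10, Dynlt1b with its copies, and the ribosomal protein gene Rps2 with 2 pseudogenes; HET libraries stand left of WT libraries. In HET 1 and WT 3 the black part, the gene itself, is small, and the stack keeps its height for H2-DMb1 and Rps2 but not for H2-T22.

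Genes with a wide gap were more frequent on chromosome 17 than elsewhere, also beyond those described. Over all genes tested, 14 of 720 on chromosome 17 had a gap of at least 1 (1.94%), all below, the side that the filter favours. On the other chromosomes 53 of 14613 did (0.363%, from 0.176% to 0.888% per chromosome). Among protein-coding genes, 11 of 625 tested on chromosome 17 had a gap of at least 1 (1.76%), all below, against 10 of 12181 on the other chromosomes (0.0821%, from 0 to 0.486% per chromosome). Without the 8 genes, which were chosen for this, 6 of 618 remained on chromosome 17 (0.971%). The widest was Rps2, a protein of the small ribosomal subunit, at 3.95, 231 and 184 FPKM in HET and 299, 218 and 3.54 FPKM in WT, a gap of -5.23. It lies 9.28 Mb from the H2-K1 start. Rps18, another protein of that subunit, lies 0.044 Mb from H2-K1 and was at 4.82, 121 and 94.1 FPKM in HET and 136, 98.55 and 5.63 FPKM in WT (gap -3.84). Atp6v0c, a subunit of the proton pump of acidic organelles, was at 4.98, 19.0 and 16.8 FPKM in HET and 23.3, 19.7 and 4.65 FPKM in WT (gap -1.58). The other 3 were Lnpep, an aminopeptidase (-1.43), Zfp871, a zinc finger gene (-1.35), and Rnps1, an RNA-binding protein of the exon junction complex (-1.09). None of these 6 is an immune gene of the lists used here. The longest of those lists, of interferon response, has 25 of the 15391 genes tested, so an absence among 6 genes is uninformative. Beside Dynlt1b, Tmem181b-ps, a transcribed pseudogene, was listed at 0, 4.93 and 6.28 FPKM in HET and 6.37, 6.36 and 0.06 FPKM in WT (gap -2.48).

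For Rps2, Rps18 and Atp6v0c, pseudogene copies elsewhere in the genome were high where the gene was low; no copies of Lnpep, Zfp871 or Rnps1 were examined. Rps2-ps10, a pseudogene on chromosome 18 that is 99.4% identical to Rps2 over 893 aligned bases, was at 411, 129 and 182 FPKM in HET and 77.8, 157 and 409 FPKM in WT. Rps2-ps13, on chromosome X (99.2% identical), was at 286, 71.8 and 94.5 FPKM in HET and 81.6, 109.8 and 227 FPKM in WT. Rps2 and both pseudogenes summed to 656, 610 and 596 FPM in HET and 694, 647 and 601 FPM in WT, so the highest library exceeded the lowest by 1.16 times. Atp6v0c and its pseudogene on chromosome 6, which differ at 1 of 465 coding bases, summed to 93.2, 86.3 and 90.8 FPM in HET and 91.5, 95.8 and 104.9 FPM in WT, a 1.22-fold range. Rps18 and Rps18-ps3 kept a 10.12-fold range in their sum. The sums of H2-DMb1, Rps2 and Atp6v0c with their copies were thus nearly level, and those of H2-T22 and Rps18 were not. For H2-T22 and Rps18 the sums counted H2-T10 and Rps18-ps3 alone as copies, so they may be incomplete. A change in how reads were shared among copies and a change in the RNA of each copy cannot be told apart from these values.

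The H2 region itself held no wide gap among the genes tested apart from those of the genes chosen for it. It was taken from the first to the last gene on chromosome 17 whose symbol begins with H2- (chr17:33974659-37483552, 3.51 Mb) and held 318 genes, of which 93 were tested. Of 11 tested H2 genes, 5 lay above and 5 below, and 4 had a gap of at least 1, all of them among the 8 genes described and so fixed by that choice. Of the 5 tested H2 genes outside that choice (H2-Ke6, H2-DMa, H2-DMb2, H2-Q4 and H2-M5), 0 had one. Of the 82 other genes tested between them, 46 lay above and 12 below, against 31.4% above and 25.2% below over all genes tested. Of these 82, 0 had a gap of at least 1. The largest there were those of Mir8094 (-0.61), and of Egfl8, a secreted protein gene (0.60), which was at 15.4, 5.35 and 3.65 FPKM in HET and 5.77, 7.95 and 12.6 FPKM in WT. On chromosome 17 outside the region, 10 of 627 genes had a gap of at least 1 (1.59%), all below. They include Dynlt1b, which was chosen for its gap.

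**Figure D4:**
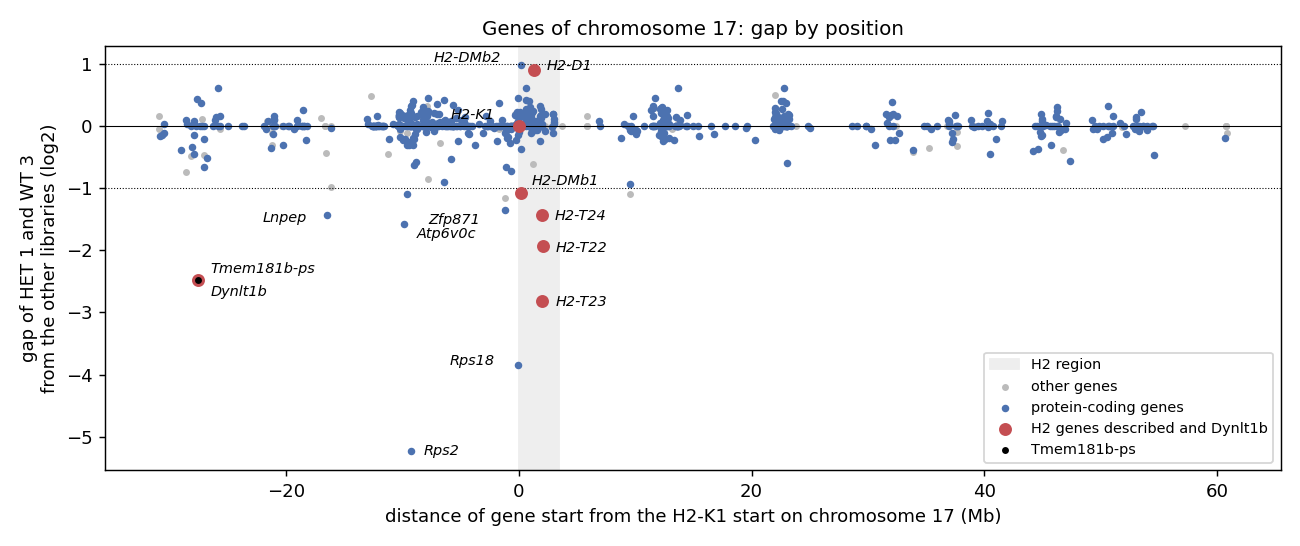
Gap of HET 1 and WT 3 from the other 4 libraries (vertical axis, log2 scale; 0 where the pair is neither above nor below) for each gene tested on chromosome 17, by distance of its start from the H2-K1 start (horizontal axis, Mb). The protein-coding genes beyond -1 lie between Dynlt1b on the left and the T region in the shaded H2 region, and the other genes of the shaded region stay between the dotted lines at -1 and 1.

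Of the other genes of antigen presentation tested, H2-DMb2 had the widest gap (0.97), and none reached 1. Of 20 other class I genes, 2 passed the filter: H2-Q4 (gap -0.07) and H2-M5 (0.03). Of 12 other class II genes, H2-DMb2, the copy of H2-DMb1 described above, and H2-DMa passed. H2-DMa, the alpha chain of the same peptide editor, was at 11.2, 7.70 and 7.76 FPKM in HET and 8.81, 9.50 and 12.97 FPKM in WT (gap 0.22), so it lay opposite to H2-DMb1. The class II chain H2-Aa stayed at 0 to 0.15 FPKM and the invariant chain Cd74 at 0.63 to 1.27 FPKM in all 6 libraries. Of 14 genes of peptide supply and loading, 11 were tested, with 4 above, 4 below and 0 with a gap of at least 1. Over all genes tested, 31.4% lay above and 25.2% below. Tap1, a subunit of the peptide transporter, was at 1.69, 1.85 and 1.59 FPKM in HET and 1.87, 1.77 and 1.68 FPKM in WT. Tap2, its partner, was at 2.56, 4.01 and 3.81 FPKM in HET and 4.10, 3.78 and 2.71 FPKM in WT (gap -0.37), and the proteasome activator gene Psme2 at 23.1, 15.3 and 16.1 FPKM in HET and 12.8, 14.5 and 20.3 FPKM in WT (gap 0.31). In limma, 0 genes of these 3 lists were called between HET and WT, with median changes of 0.08, 0.01 and -0.03, against 0.001 over all genes tested.

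Of 38 interferon-response genes, 25 were tested, and 0 had a gap of at least 1. In 9 of the 25 the pair lay above, in 1 below and in 15 neither, against 31.4% above and 25.2% below over all genes tested. The widest was that of Rtp4 (0.29). Ifitm3, which blocks virus entry, was at 71.4, 46.9 and 50.4 FPKM in HET and 52.8, 59.8 and 70.9 FPKM in WT (gap 0.24). Isg15, a ubiquitin-like protein of the interferon response, was at 2.84, 1.98 and 1.28 FPKM in HET and 1.71, 2.45 and 3.59 FPKM in WT. The list summed to 225, 178 and 183 FPKM in HET and 182, 205 and 236 FPKM in WT, highest in HET 1 and WT 3. Over all genes, FPKM also summed highest in this pair, at 312688 in HET 1 and 304990 in WT 3 against 273016 to 283674 in the other 4. Whether these sums were high for the same reason was not tested. The median change between genotypes was -0.04 and 0 of 25 were called.

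Lymphocyte markers were low in all libraries, macrophage markers had no wide gap, and of the red cell and vessel markers Hba-a2 alone had one. Macrophage markers (14 of 16 tested) summed to 59.1 to 73.6 FPKM in HET and 61.2 to 70.5 FPKM in WT, with 5 above, 1 below and 0 with a gap of at least 1. C1qa, of the complement system, was at 11.2, 9.94 and 7.05 FPKM in HET and 9.55, 8.78 and 12.6 FPKM in WT (gap 0.16), and the mannose receptor Mrc1 had a gap of -0.24. None of 12 lymphocyte markers passed the filter, and they summed to at most 1.97 FPKM in any library. Red cell and vessel markers (10 of 12 tested) summed to 83.5 to 173 FPKM in HET and 136 to 202 FPKM in WT. That sum was highest in HET 1 and WT 3, as was the sum over all genes. In 3 of the 10 the pair lay above and in 1 below, against 31.4% above and 25.2% below over all genes tested. Hbb-bs had a gap of 0.06, and Hbb-bt and Alas2 had a gap of 0. Hba-a1, an alpha globin gene, was at 62.5, 20.02 and 40.9 FPKM in HET and 33.7, 45.5 and 78.2 FPKM in WT (gap 0.45). Its near-identical copy Hba-a2 was listed at 0 in both HET 1 and WT 3 and had a gap of -1.02. The part of these cells in the levels of the 8 genes was not tested. In the files the H2 haplotype of each library is not given, and neither haplotype nor immune activity was tested as a source of the levels in HET 1 and WT 3.

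**Figure D5:**
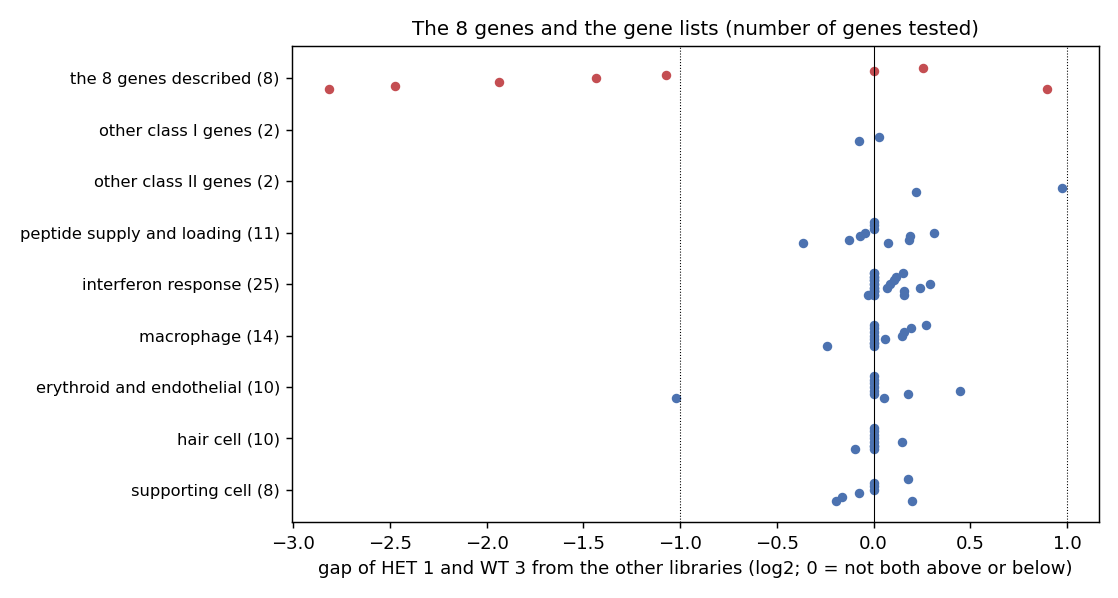
Gap of HET 1 and WT 3 from the other 4 libraries (horizontal axis, log2 scale) for the 8 genes described (red) and for the tested genes of each list (blue), 1 point per gene; vertical offsets within a row only separate points. The 8 genes reach -2.81, while of the listed genes Hba-a2 alone lies beyond the dotted lines at -1 and 1, and H2-DMb2 lies just inside.

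The genes most like the 2 with the widest range were found by the root-mean-square difference of log2(FPKM + 1) profiles centred on their means over the 6 libraries. The gene nearest to H2-T23 was Dynlt1b, at 0.18, and the reverse also held. Next for both came Tmem181b-ps (0.21 from each), the microRNA gene Mir344-2 on chromosome 7 (0.35 from H2-T23 and 0.31 from Dynlt1b) and H2-T22 (0.38 and 0.36). Dynlt1b, H2-T23 and H2-T22 were chosen for this shared pattern, so their likeness is no separate result. B2m had other neighbours: Kcna6, a potassium channel gene, and Cox6b1, of the respiratory chain, both at 0.02, then Ap2s1, Polr2i and Dynlrb1. Cox6b1 was at 181, 105 and 104.0 FPKM in HET and 120, 128 and 150 FPKM in WT, nearly the levels of B2m. None of the 5 genes nearest to B2m is on chromosome 17 or in the immune lists. Such genes are few: 720 of the 15391 genes tested are on chromosome 17, and the longest immune list, of interferon response, has 25 tested genes. Their absence among 5 genes is therefore uninformative.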

How the data were processed

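RNA of 9 cochlear libraries was prepared with poly(A) selection or rRNA removal, per the labels' protocols, and FPKM values were deposited by the authors for each library, rounded to 2 decimals. DESeq2 and mm8, a mouse build, are named in the submitters' processing notes; the sources used here do not give the aligner, counter, annotation or use of strand. Identifiers were matched to GENCODE M21 (51719 of 51912), so coordinates are those of GRCm38, not of the authors' build. Whole fragments were recovered from the steps between low values (99.38% to 99.77% of values whole within 0.1), and summed to 108.0% to 108.2% of the recovered depth. Counting intervals are exact Poisson at 95% and cover counting error only.

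HET and WT were compared with limma 3.58.1 in R 4.3.3 (two-sided, empirical Bayes with a trend, Benjamini-Hochberg over all 15391 genes, threshold 0.05) on log2(FPKM + 1), which understates changes of low genes. The script was tested on simulated data. All 8 genes were named, and up to 4 genes per list by change and by gap. The genes, lists and tests were chosen with earlier results of these data known. Same-numbered libraries deviated from their group means with correlations of -0.52, 0.29 and -0.47. HET 1 and WT 3, which stand apart, correlated at 0.64, so these values cannot decide whether replicate numbers pair libraries. The main comparison used no pairing. No gene of HOM was compared.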

Additional observations from a re-analysis of the deposited data

How the results depend on the processing

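Between HET and WT, limma called 0 genes with a pseudocount of 0.1 or 0.5, without a filter, at a minimum of 5 FPKM (which removed H2-T22 and H2-T24), under median-ratio or upper-quartile scaling, without a trend and with HET 1 and WT 3 left out. With the replicate block it also called 0 genes, and 173 rather than 266 had an unadjusted p under 0.05. Leaving out each library in turn gave 0 to 1 genes called, the calls being Rpl29 without WT 1 and Xist without WT 2, both named after their values were seen. The number at an unadjusted p under 0.05 then ran from 167 without HET 3 to 1833 without HET 1.

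With a pseudocount of 0.1, 180 genes instead of 68 had a gap of at least 1. Leaving out single libraries gave changes of HET minus WT from -1.03 to 0.46 for H2-T22, from -1.08 to 0.93 for H2-T23, from -0.54 to 0.51 for H2-T24, from -0.63 to 0.28 for H2-DMb1, from -0.0856 to 0.0975 for H2-K1, from -0.45 to 0.31 for H2-D1, from -0.36 to 0.0505 for B2m and from -0.74 to 1.14 for Dynlt1b. The sign also turned for H2-T23 with a pseudocount of 0.1 (0.0688) and for H2-K1 with median-ratio scaling (0.00259). The cause was not tested. Alternatives planned for HOM were not run, since its files list none of the 8 genes. Requiring 1 FPKM in at least 2 libraries when describing the pattern was added after seeing the data. Few fragments in HET 1 and WT 3 limit how far below the others the low genes can be placed.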
